A study of Homo sapiens with 4 samples.

Results

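HIVEP1, ADTRP and the genes beside them on the short arm of human chromosome 6, band 6p24, were followed in MOLM-14, a widely used cell line grown from a human acute myeloid leukemia. The list holds 6 protein-coding genes, which stand in the order NEDD9, TMEM170B, ADTRP, HIVEP1, EDN1 and PHACTR1 in the RefSeq gene table of GRCh38.p14. A gene was measured where the array annotation gave a probe set its symbol and no other, and its brightest such probe set was used. On that rule 5 of the 6 genes had a value, among 18377 genes in all, and TMEM170B, a small membrane protein, had no probe set named for it. Of the 4 Affymetrix whole-transcript arrays, 2 held RNA of cells given the solvent DMSO and 2 held RNA of cells given DZNep at 2 µM, all for 24 h. All 4 samples come from this 1 cell line in ordinary culture medium with serum, without a genetic change between groups. The titles call them biological replicates but name no separate cultures, so a p-value here covers only the spread among these arrays, and that spread may be technical.

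DZNep, 3-deazaneplanocin A, blocks S-adenosylhomocysteine hydrolase and so lets the product inhibitor of methyltransferases build up. It is widely used to deplete EZH2, the enzyme of Polycomb repressive complex 2 that methylates lysine 27 of histone H3. That mark can lie over stretches of chromatin that hold several genes, which is why neighbouring genes are of interest with this drug. HIVEP1 is a large zinc finger protein of the ZAS family that binds κB-like enhancer sequences, ADTRP a multi-pass membrane hydrolase of fatty acid esters named for its effect on tissue factor pathway inhibitor, and EDN1 the precursor of the vasoconstrictor endothelin-1. PHACTR1 binds actin and protein phosphatase 1, and NEDD9 is a scaffold of the CAS family at sites of cell adhesion.

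Start sites from RefSeq (GRCh38.p14) were matched for 5 of the 6 genes, all but HIVEP1. The 250 bases before the start are printed for ADTRP, which was higher with DZNep, and for EDN1, the gene next to HIVEP1 on its other side, at the third of its 3 listed starts. ADTRP is read from the minus strand at chr6:11778804-11779053 and EDN1 from the plus strand at chr6:12290111-12290360, and capitals mark matches to the searched motifs.
ADTRP: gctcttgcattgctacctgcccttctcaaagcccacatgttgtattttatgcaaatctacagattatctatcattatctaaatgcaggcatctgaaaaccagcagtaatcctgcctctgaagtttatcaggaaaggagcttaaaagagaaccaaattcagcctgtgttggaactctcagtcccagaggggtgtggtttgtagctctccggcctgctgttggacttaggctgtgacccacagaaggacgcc
EDN1: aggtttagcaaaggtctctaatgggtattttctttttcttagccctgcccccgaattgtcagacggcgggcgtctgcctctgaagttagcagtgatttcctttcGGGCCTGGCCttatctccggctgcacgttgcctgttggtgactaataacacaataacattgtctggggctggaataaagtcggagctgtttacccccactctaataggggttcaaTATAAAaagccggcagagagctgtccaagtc
The letters searched, on both strands and with overlapping matches kept, were the GGG and CC of κB-like sites held apart by any 5 bases, TGANTCA for AP-1 sites, TGACGTCA for the cAMP response element and TATAAA for the TATA box. They were found in 54.4%, 6.57%, 1.65% and 10.7% of all 35116 starts in the table, in windows of the same length. The ADTRP window held none of them, and the EDN1 window held the κB-like GGGCCTGGCC from 146 to 137 bases before the start and TATAAA from 31 to 26 bases before it. Of the 15 starts matched to these genes 5 held none of the motifs, the ADTRP start, 1 of EDN1, 2 of NEDD9 and 1 of PHACTR1, so the contrast between the printed windows depends on the EDN1 start shown. A match is only a match of letters, and its absence concerns only these letters in this window.

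The windows also differed in base composition. ADTRP had a GC content of 46.4% and a ratio of observed to expected CpG of 0.149, against medians of 58.0% and 0.558 over all starts. The start of TMEM170B, next to ADTRP in gene order, had 78.8% GC and a CpG ratio of 1.08. The 3 EDN1 starts ran from 42.8% to 54.0% GC, with CpG ratios of 0.595 to 0.665, and the 3 NEDD9 starts from 40.0% to 50% GC, with ratios of 0.394 to 0.578. The 7 PHACTR1 starts ran from 31.2% to 57.6% GC, with ratios of 0 to 0.544. Only the PHACTR1 start with a ratio of 0 lay below ADTRP, and the next lowest PHACTR1 start had 0.304.

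ADTRP and HIVEP1 were about 4-fold or more higher with DZNep, while NEDD9, EDN1 and PHACTR1 differed by less than 0.25 on the log2 scale. The list was drawn up with this contrast known, so the differences of its genes describe what was chosen. No p is given for them, and their intervals and calls stand as description only. Log2 intensity of ADTRP was 6.05 and 6.15 with DMSO and 8.28 and 8.36 with DZNep. Both DZNep values lay above both DMSO values, with a gap of 2.13 between the groups, against differences of 0.09 within each group. The means were 6.10 ± 0.07 and 8.32 ± 0.06 (SD, n = 2 arrays each), a log2 difference of 2.22 (SE 0.10) or 4.67-fold. It was the rise ranked 4 among the 18377 genes. Its DMSO values lay below the median of 6.99 to 7.08 over all probe sets of an array, and no detection call was used that would say whether they stand above background. With 16 subtracted from every intensity its log2 difference was 2.53.

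HIVEP1 was read at 8.28 and 7.89 with DMSO and at 10.09 and 10.06 with DZNep. The DZNep arrays nearly coincided and lay 1.78 above the higher DMSO array, while the DMSO arrays were 0.39 apart. The means were 8.09 ± 0.27 and 10.07 ± 0.03 (SD, n = 2 arrays each), a log2 difference of 1.99 (SE 0.13) or 3.97-fold, which ranked 7. Set against DMSO replicate 2 alone the difference was 2.18, and against DMSO replicate 1 alone 1.80. Whether ADTRP and HIVEP1 differed in the size of their rise was not tested.

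**Figure D1:**
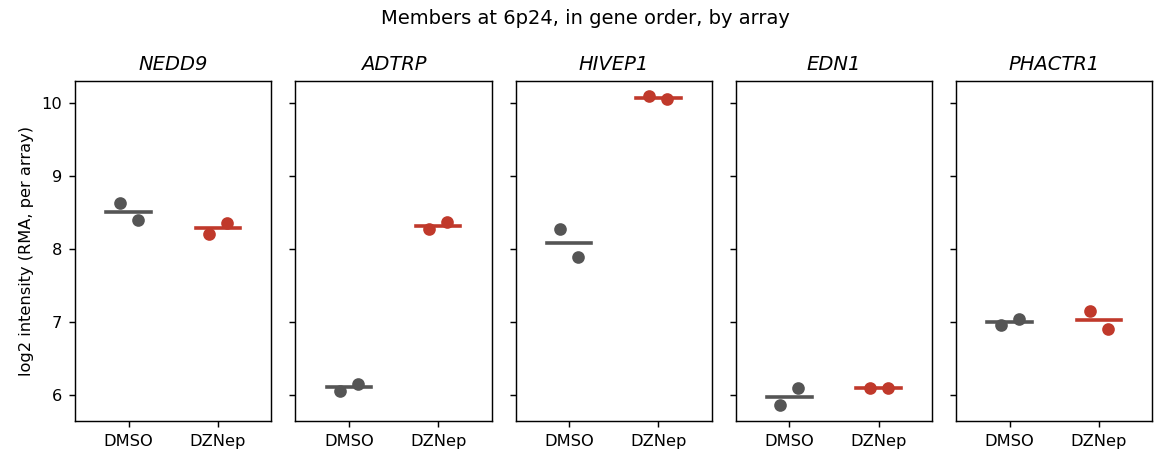
Log2 intensity of the 5 measured genes in chromosome order, with 1 panel per gene; each point is an array (replicate 1 on the left, replicate 2 on the right) and each bar the mean of 2 arrays. ADTRP goes from 6.10 to 8.32 and HIVEP1 from 8.09 to 10.07, and the DZNep means of the other 3 genes lie within 0.25 of their DMSO means; levels of different genes are not comparable, since each has its own probes.

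EDN1, beyond HIVEP1, was read at 5.85 and 6.09 with DMSO and at 6.09 and 6.09 with DZNep. These values lay below the median over all probe sets of each array. No detection call was used that would say whether they stand above background. The DZNep arrays lay above the higher DMSO array by 0.0023, far less than the 0.23 between the DMSO arrays. Its log2 difference was 0.12 (SE 0.11), with a 95% interval from -0.12 to 0.36, and it was 0.24 against DMSO replicate 1 alone and 0.01 against DMSO replicate 2 alone. PHACTR1, the next gene, was read at 6.95 and 7.04 with DMSO and at 7.15 and 6.90 with DZNep, and the groups overlapped. Its log2 difference was 0.03 (SE 0.11), with an interval from -0.23 to 0.28.

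NEDD9, the outermost gene on the side of ADTRP, was read at 8.63 and 8.40 with DMSO and at 8.21 and 8.35 with DZNep. Both DZNep values lay below both DMSO values, with a gap of 0.05 that was smaller than the differences of 0.22 and 0.15 within the groups. Its log2 difference was -0.23 (SE 0.11), with an interval from -0.48 to 0.02.

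Counted by call, 2 of the 5 measured genes were higher with DZNep (limma, adjusted p up to 0.05 over all genes) and none was lower. Over all genes 3.62% were called higher (665) and 6.68% lower (1227), and nothing is read from the list's count beside it. Both DZNep arrays lay above both DMSO arrays for 3 of the 5, against 25.9% of all genes, and below them for 1, against 23.9%. At least 2-fold higher were 2 of the 5, against 0.321% of all genes. The median log2 difference was 0.12 over the 5 genes and 0.02 over all genes. Leaving out an array leaves 1 array in its group, whose spread cannot then be seen. Fits without an array are therefore read for their log2 differences only, and whether a call would hold in them was not judged. An exact permutation test of 1 gene over 2 against 2 arrays cannot go below p = 0.333, so every call rests on the pooling of variance across genes in limma.

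ADTRP and HIVEP1 are direct neighbours among protein-coding genes. RefSeq places 6 entries wholly between them, 5 long non-coding RNAs and 1 pseudogene, and 0 of these had a tested probe set. From NEDD9 to PHACTR1 the table holds 35 entries, of which only the 5 measured genes had a tested probe set. The non-coding transcripts of the interval were thus not analysed here.

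Further out, chosen by position alone, were the 15 nearest measured protein-coding genes on each side, and no measured gene of this kind lay between the 5. Of these 30 flanking genes, 3 were higher and 3 lower with DZNep (limma, adjusted p up to 0.05), or 10.0% each way, against 3.62% and 6.68% of all genes. Only 1 of the 30 was called higher with 16 subtracted from every intensity, and 4 were under quantile normalization. Their median log2 difference was 0.08, and the highest was 0.70. On the side of NEDD9 2 of 15 were higher and 0 lower, with a median of 0.17. On the side of PHACTR1 1 of 15 was higher and 3 lower, with a median of -0.07, and the difference between the sides was not tested.

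TFAP2A, the developmental transcription factor AP-2 alpha, was read at 7.80 and 7.81 with DMSO and at 8.49 and 8.51 with DZNep. It rose by 0.70 on the log2 scale (limma, SE 0.09, adjusted p = 0.0017), and its groups stood well apart. JARID2, an accessory subunit of Polycomb repressive complex 2, was read at 10.63 and 10.58 with DMSO and at 11.02 and 11.04 with DZNep. It rose by 0.42 (limma adjusted p = 0.020), and by 0.43 without DZNep replicate 1 and 0.41 without DZNep replicate 2. SYCP2L, a relative of a synaptonemal complex protein, rose by 0.45 (limma adjusted p = 0.029), and missed it when DMSO replicate 2 (limma adjusted p = 0.063), DZNep replicate 1 (0.165) or DZNep replicate 2 (0.0619) was left out and under median centring (0.052).

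The flanking genes that fell lay on the side of PHACTR1. CAP2, an actin regulator, was read at 8.18 and 7.78 with DMSO and at 6.64 and 6.52 with DZNep, 2.63-fold lower (limma, log2 difference -1.40, SE 0.13, adjusted p = 0.00036). Its groups did not overlap, and its DMSO arrays were the more spread. MCUR1, a regulator of the mitochondrial calcium uniporter, had a log2 difference of -0.94 (limma adjusted p = 0.0018). RANBP9, a scaffold protein that binds Ran, had a log2 difference of -0.57 (limma adjusted p = 0.015). Leaving out DMSO replicate 1 brought it to -0.43.

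The measured genes nearest to the outer ends of the list did not pass the test. On the side of NEDD9, ERVFRD-1, the envelope-derived placental protein syncytin-2, had a log2 difference of 0.19 (limma adjusted p = 0.332). ELOVL2, an elongase of polyunsaturated fatty acids, had a difference of 0.26 (limma adjusted p = 0.288), and leaving out DMSO replicate 2 brought it to 0.46. On the side of PHACTR1, GFOD1 had -0.26 (limma adjusted p = 0.130) and SIRT5, a mitochondrial sirtuin that removes succinyl groups, 0.12 (0.601).

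**Figure D2:**
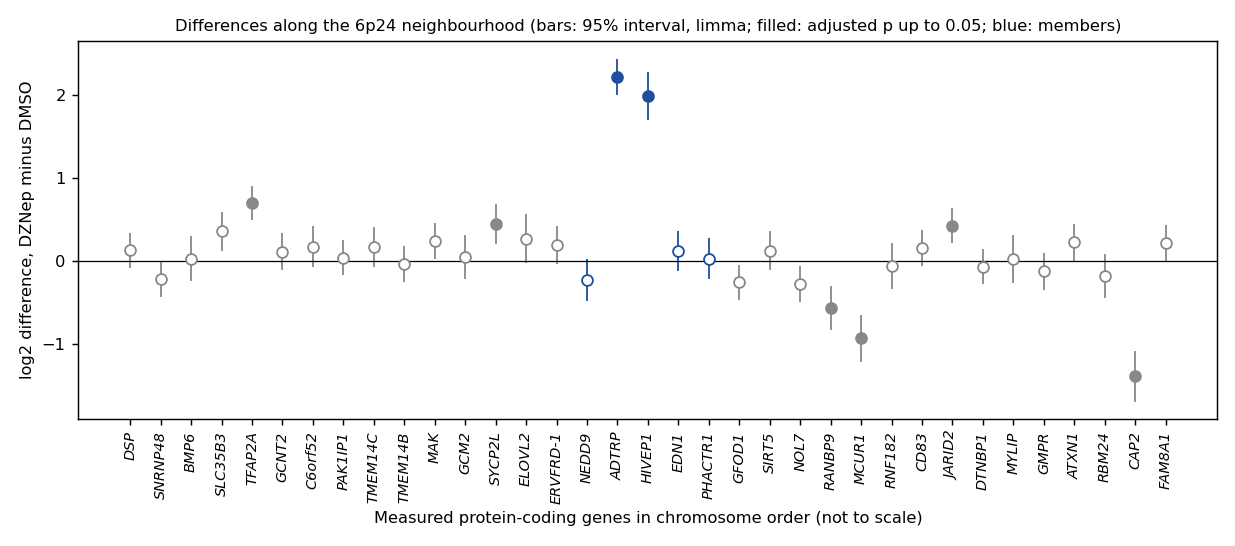
Log2 difference between DZNep and DMSO (means of 2 arrays each, with the 95% interval of limma) for the 5 measured genes, in blue, and 15 measured protein-coding genes on each side, in grey, in chromosome order with even spacing. Filled points have a limma adjusted p up to 0.05. ADTRP at 2.22 and HIVEP1 at 1.99 stand next to each other, and the nearest measured genes on their 2 sides are NEDD9 at -0.23 and EDN1 at 0.12. TMEM170B, which lies between NEDD9 and ADTRP, was not measured.

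As a background for neighbours that are high together, 16863 measured protein-coding genes were put in chromosome order, which gave 16839 adjacent pairs. In 60 pairs (0.356%) both genes were called higher with DZNep, in 112 (0.665%) both were called lower, and in 69 (0.41%) the calls were opposite. Both were called higher in 41 pairs with 16 subtracted from every intensity, and in 85 under quantile normalization. Of the 619 genes in this order that were called higher, 116 (18.7%), ADTRP and HIVEP1 among them, had at least 1 adjacent gene called higher too, against 7.1% of all genes in this order. Over all pairs the Pearson correlation of the log2 differences was 0.089, across genes that share the 4 arrays and are not independent.

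Both genes were at least 2-fold higher in 5 pairs, or in 3 without DMSO replicate 2. ADTRP with HIVEP1 had the largest value for the lesser of its 2 differences, 1.99, and this rank held in each of the 13 alternatives that tested ADTRP. The other pairs, named after their values were seen, were the lipid transporters ABCA9 and ABCA6 (lesser difference 1.43), the metalloproteinases ADAMTS1 and ADAMTS5 (1.16), the ADAM family members ADAM28 and ADAMDEC1 (1.07), and the lysosomal fucosidase FUCA1 with the cannabinoid receptor CNR2 (1.05). The first 3 of these join members of 1 gene family, whereas ADTRP and HIVEP1 belong to different families. No test of this pair against the others was made, since it was known to be high when it was chosen.

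**Figure D3:**
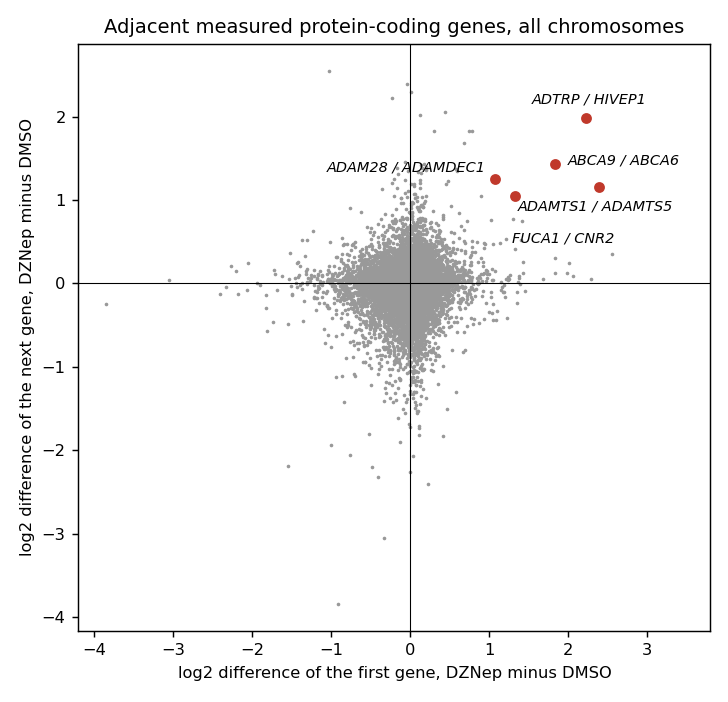
Each grey point is 1 of 16839 pairs of adjacent measured protein-coding genes, with the log2 difference (DZNep minus DMSO) of the first gene on the horizontal axis and of the next gene on the vertical axis. The 5 red points are the pairs with both differences at 1 or more, and ADTRP with HIVEP1 lies at 2.22 and 1.99, where the lesser of the 2 differences is the largest.

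By profile over the 4 arrays, each gene centred on its own mean, the gene most like ADTRP was TXNIP, the thioredoxin-interacting protein, at a Euclidean distance of 0.14 in log2 units. CCNA1, a cyclin of germ cells and some leukemias, followed at 0.18, then the cytokine TNF at 0.30, the monocyte membrane protein MS4A6A at 0.34 and the metalloproteinase ADAMTS1 at 0.39. HIVEP1 stood at 0.42 from ADTRP, with 6 genes nearer. Outside the list, the genes most like HIVEP1 were GPR183, an oxysterol receptor, at 0.27, CCNA1 at 0.35, TXNIP at 0.40, the histone gene H2BC12 at 0.41 and ABCA9 at 0.43. ADTRP, at 0.42, stood between the last 2, with 4 genes nearer. The measure takes in both the size of the difference and the spread within each group, so genes with a like difference score as alike. Histone genes are near-identical copies, so the value of H2BC12 is uncertain.

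Relatives and partners of the 6 genes were listed from general knowledge, and 50 of 54 were measured. Of these, 4 were higher with DZNep and 0 lower (limma, adjusted p up to 0.05), against 3.62% and 6.68% of all genes, and their median log2 difference was 0.07. Of the 4, 3 were among the 11 genes listed as κB site factors, the group of HIVEP1, whose median was 0.23. That group also holds inhibitors and cofactors of NF-κB, so its count is not one of proteins that bind κB sites. NFKBIA, the inhibitor that holds NF-κB in the cytoplasm, was read at 8.70 and 8.75 with DMSO and at 9.96 and 9.99 with DZNep, and rose 2.39-fold (limma, log2 difference 1.26, SE 0.09, adjusted p = 0.0001). HIVEP2, a second zinc finger protein of the ZAS family, was read at 8.16 and 7.88 with DMSO and at 8.42 and 8.51 with DZNep. It rose by 0.45 (limma adjusted p = 0.040), a call that ended without DMSO replicate 2 (limma adjusted p = 0.0855), DZNep replicate 1 (0.0614) or DZNep replicate 2 (0.183), and under median centring (0.0726). BCL3, a nuclear cofactor of NF-κB, rose by 0.44 (limma adjusted p = 0.032), and by 0.35 without DZNep replicate 1 and 0.52 without DZNep replicate 2. With 16 subtracted from every intensity HIVEP2 (limma adjusted p = 0.0829) and BCL3 (0.0664) missed the threshold, as did the flanking genes JARID2 (0.0549) and SYCP2L (0.0643). HIVEP3, the third family member, had a log2 difference of 0.36 and did not pass (limma adjusted p = 0.095).

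Around ADTRP, 1 of 7 measured genes of the tissue factor pathway and of fatty acid ester hydrolysis was higher and 0 were lower. Over all genes 3.62% were called higher and 6.68% lower, and nothing is read from 1 call in a list this short. F3, the tissue factor that starts coagulation, was read at 9.05 and 9.22 with DMSO and at 10.38 and 10.31 with DZNep, 2.31-fold higher (limma, log2 difference 1.21, SE 0.10, adjusted p = 0.00021). TFPI, the inhibitor in the name of ADTRP, was read at means of 4.56 and 4.55, close to the lowest intensities of the arrays, with a log2 difference of -0.01 (limma adjusted p = 0.974). AIG1, the relative of ADTRP with the same hydrolase activity, had one of 0.06 (limma adjusted p = 0.854). TFPI, AIG1 and HIVEP3 fall outside the rule for named genes and were named after their values were seen.

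The listed partners and relatives of EDN1, NEDD9, PHACTR1 and TMEM170B gave no call at an adjusted p up to 0.05 in limma. Over all genes only 3.62% were called higher and 6.68% lower, so nothing is read from a count of 0 in lists this short. In the endothelin axis 0 of 9 measured genes passed, with ECE1, the enzyme that releases endothelin-1 from its precursor, at 0.25 (limma adjusted p = 0.143) and the convertase FURIN at 0.18 (0.341). Among the CAS scaffold partners of NEDD9 0 of 12 passed, with the exchange factor RAPGEF1 at 0.40 (limma adjusted p = 0.094) and the kinase PTK2B at 0.34 (0.055). Both passed under quantile normalization (limma adjusted p = 0.038 and 0.0196) and with an intensity trend (0.0306 and 0.00828). RAPGEF1 was at 0.61 without DMSO replicate 1 and at 0.20 without DMSO replicate 2. In the group of PHACTR1 0 of 10 passed, with its relative PHACTR4 at -0.30 (limma adjusted p = 0.123) and beta-actin, ACTB, at 0.24 (0.160, or 0.00732 with an intensity trend). PHACTR4 was at -0.41 without DMSO replicate 2 and at -0.19 without DMSO replicate 1. TMEM170A, the relative of TMEM170B, had a log2 difference of -0.33 (limma adjusted p = 0.057), and passed under median centring (0.0497) and with an intensity trend (0.0175).

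**Figure D4:**
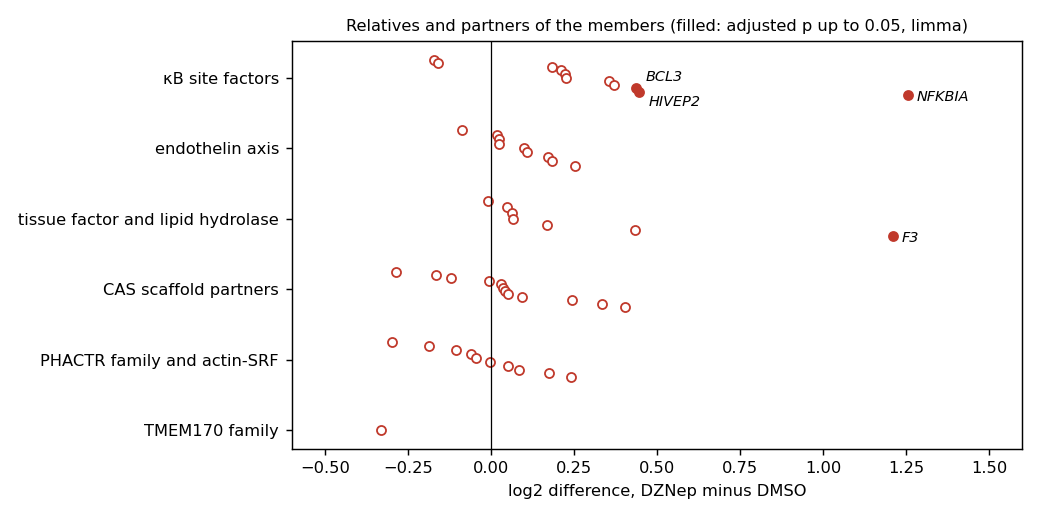
Log2 difference between DZNep and DMSO for the 50 measured relatives and partners, 1 point per gene and 1 row per group; filled, named points have a limma adjusted p up to 0.05. NFKBIA at 1.26 and F3 at 1.21 lie far to the right of their groups, BCL3 and HIVEP2 at 0.44 and 0.45 lie among the higher values of theirs, and the other 46 genes did not pass.

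All 9 measured markers of a myeloid leukemia line had mean log2 intensities above that of the median gene, as did 2 of 8 endothelial, 0 of 4 T cell, 1 of 3 B cell, 0 of 3 erythroid and 2 of 4 epithelial markers. Of the 9 myeloid markers 2 were higher with DZNep and 1 was lower, against 3.62% and 6.68% of all genes. The higher ones were the bacteriolytic enzyme LYZ at 0.53 (limma adjusted p = 0.011) and the macrophage growth factor receptor CSF1R at 0.47 (0.013). The lower one was the receptor kinase FLT3 at -0.94 (limma adjusted p = 0.00054). LYZ was at 0.45 without DMSO replicate 1 and 0.62 without DMSO replicate 2, and CSF1R at 0.45 and 0.48 without the same arrays. Their part in the values of ADTRP and HIVEP1 was not tested. Endothelial cells are a main source of endothelin-1, but all samples here come from a single leukemia cell line. Endothelial markers averaged 6.46 and 6.61 with DMSO and 6.70 and 6.65 with DZNep. A link of these marker values to those of EDN1 and ADTRP was not tested. The median log2 difference of the 8 endothelial markers was 0.03. Of these 8 genes 1 was higher and 0 lower, against 3.62% and 6.68% of all genes. The higher one was PECAM1, which monocytes also carry, at 0.99 (limma adjusted p = 0.00037). The 7 not called were CLDN5 (0.17), TEK (0.14), CDH5 (0.03), VWF (0.03), KDR (0.01), ERG (-0.07) and EMCN (-0.18). In bulk samples of a cell line, fewer cells in a given state and less RNA per cell cannot be told apart. Across all genes, the log2 difference within a group had an SD of 0.197 for DMSO and 0.138 for DZNep, and precision is limited by there being 2 arrays a group.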

How the data were processed

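Per the submitters' processing notes the authors used RMA, and the deposited values are linear intensities, 1 for each probe set on each array. The sources used here give no RMA version, software or added constant. Values ran from 18.1 to 16502, and a floor near 18 would shrink the fold of a dim gene. They were turned into log2 without a pseudocount and not normalized again. The platform annotation, which can be old, gave 1 symbol to 19310 of 28869 probe sets and several to 1752, and 7807 were not listed. Each gene took its brightest probe set with 1 symbol. The 2 groups were compared in limma 3.58.1 under R 4.3.3 (lmFit and eBayes, two-sided, no other term in the model), and p was adjusted by Benjamini-Hochberg over 18377 genes, with 2 residual and 7.18 prior degrees of freedom. The script was tested on simulated data. Gene order came from the RefSeq table of GRCh38.p14, and no probe coordinates were used. Alternatives were a replicate block, filters on dim genes, an intensity trend, cyclic loess, quantile or median scaling of the arrays, subtraction of 16 before log2, the mean over probe sets, and leaving out each array.

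The genes named were all members; called flanking genes (at most 10) and the 2 nearest on each side; up to 4 called genes per list, or the 2 largest differences where none was called; and the 5 genes outside the members most alike in profile to HIVEP1 and to ADTRP. The members and lists were chosen with earlier results of these data known. Proteins were not compared here.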

Additional observations from a re-analysis of the deposited data

How the results depend on the processing

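Of 14 alternatives, 1 was chosen after seeing the data. Log2 differences of the measured members ranged from 2.18 to 2.53 for ADTRP, 1.80 to 2.18 for HIVEP1, 0.01 to 0.24 for EDN1, -0.10 to 0.15 for PHACTR1 and -0.35 to -0.12 for NEDD9. Without the dimmest 50% of genes ADTRP, EDN1 and PHACTR1 were not tested, so 1 member was called higher, and EDN1 was not tested without the dimmest 25%. Flanking genes called higher numbered 1 with 16 subtracted before log2. All genes called higher ranged from 336 to 776 and lower from 734 to 1662 when an array was left out, and neighbouring pairs both called higher from 24 to 66. Of the listed relatives and partners, 4 were called, against 7 with the replicate number as a block, 8 without the dimmest 25% and 9 without the dimmest 50% of genes, 7 under quantile normalization, 9 with an intensity trend and 2 with 16 subtracted. The titles do not say whether same-numbered arrays share a batch, and this could not be settled here. Deviations of same-numbered arrays correlated at -0.219, and with the replicate block 754 genes were called higher and 1353 lower. A crossed replicate block, added after that, called 1034 genes higher, 1690 lower, 10 relatives and partners and 101 pairs.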
